A study of Mus musculus with 9 samples.

Results

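Adult hearts were compared with neonatal hearts of the mouse for their extrachromosomal circular DNA (eccDNA), closed circles of chromosomal sequence that lie outside the chromosomes. The comparison takes 6 of the 9 libraries of the study, chosen by their stage label: 3 libraries of postnatal day 3 (3d) and 3 libraries of 8 weeks (8w). Both groups are wild type C57BL/6J mice, without any transgene or treatment in the labels, and the sex is not given. For both groups the labels name the tissue (heart) and also a cell type (cardiocytes). Hearts may therefore stand for whole organs or for cells taken from them, and it is not stated whether 1 library held 1 heart or a pool. The libraries are labelled biological replicates, and the p-values below measure the spread between libraries. In the main edgeR and DESeq2 fits that spread was estimated from all 9 libraries of the study. The study's question was how widespread such circles are in the heart over development. In Circle-seq, linear DNA is digested away, what is left is amplified by the phi29 polymerase and then sequenced, and a split read spans the junction at which a circle closes. The circles of both groups numbered 109724 distinct positions, 91322 of them with at least 1 split read in a 3d library and 24518 in an 8w library, of 149584 in the whole series.

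eccDNA forms when a piece of chromosomal DNA is closed into a ring, and circles of many tissues have been described with lengths that follow the wrapping of DNA around nucleosomes. In the days after birth the mouse heart changes from growth by cell division to growth by enlargement of its muscle cells, which leave the cell cycle and turn from glycolysis to the oxidation of fatty acids. A circle that holds a promoter or a microRNA gene, but no whole protein-coding gene, can carry regulatory sequence without the coding sequence. Circles are genomic DNA, which every cell type carries, so the lists of cell type genes below describe where circles came from in the genome and not which cells were present.

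The smallest circles with a regulatory address are shown first, because most adult circles are of this size. Of the circles of 250 bp or less, 14 in the neonatal libraries and 18 in the adult libraries lay wholly inside the 250 bases upstream of a gene start in RefSeq (GRCm38.p6). Each library held few of them: 7, 7 and 1 at 3d and 3, 13 and 2 at 8w. The 3 per stage with the most split reads are printed below as the 250 upstream bases on the strand of the gene, with the circle in capitals. The neonatal 3 were all read in 3d replicate 2. The one of Mdrl, a long noncoding RNA described in mouse cardiomyocytes, was at chrX:36817227-36817431 (minus strand, 205 bp, 27 split reads). The one of Gm33582 was at chr14:60176351-60176492 (plus strand, 142 bp, 21 split reads, and 1 in 8w replicate 1). The one of Iho1, a gene of meiotic recombination, was at chr9:108431944-108432065 (minus strand, 122 bp, 19 split reads).
Mdrl: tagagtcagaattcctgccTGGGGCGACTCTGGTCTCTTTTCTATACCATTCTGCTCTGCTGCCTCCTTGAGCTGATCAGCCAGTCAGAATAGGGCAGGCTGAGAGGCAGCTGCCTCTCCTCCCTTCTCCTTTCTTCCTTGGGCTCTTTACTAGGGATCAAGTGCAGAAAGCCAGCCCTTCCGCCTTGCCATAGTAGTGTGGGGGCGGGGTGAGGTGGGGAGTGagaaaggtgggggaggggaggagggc
Gm33582: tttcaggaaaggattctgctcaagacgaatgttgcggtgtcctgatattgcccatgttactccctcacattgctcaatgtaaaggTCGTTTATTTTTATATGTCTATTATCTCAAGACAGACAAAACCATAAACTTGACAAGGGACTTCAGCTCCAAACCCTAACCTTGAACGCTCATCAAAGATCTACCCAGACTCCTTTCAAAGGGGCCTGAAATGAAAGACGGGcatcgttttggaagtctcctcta
Iho1: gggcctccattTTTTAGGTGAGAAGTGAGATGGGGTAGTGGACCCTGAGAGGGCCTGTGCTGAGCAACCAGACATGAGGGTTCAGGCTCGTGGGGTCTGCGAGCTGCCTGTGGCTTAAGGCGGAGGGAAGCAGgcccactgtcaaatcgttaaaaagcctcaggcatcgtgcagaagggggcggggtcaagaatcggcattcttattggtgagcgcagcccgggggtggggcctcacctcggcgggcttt

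The adult 3 were all read in 8w replicate 2. The one of Sec23ip, whose protein binds the coat of vesicles that leave the endoplasmic reticulum, was at chr7:128744629-128744724 (plus strand, 96 bp, 29 split reads). The one of Gm30494 was at chr8:79836591-79836744 (plus strand, 154 bp, 27 split reads). The one of Slc38a7, an amino acid transporter, was at chr8:95853540-95853636 (minus strand, 97 bp, 19 split reads, and 1 in 3d replicate 1). The circles inside upstream windows had a median length of 107 bp at 3d and 127.5 bp at 8w, and a mean GC content of 46.3% and 45.4%. The circles of Mdrl, Iho1, Sec23ip and Gm30494 were read in 1 of the 6 libraries alone, and those of Gm33582 and Slc38a7 had a single split read in 1 library of the other stage.
Sec23ip: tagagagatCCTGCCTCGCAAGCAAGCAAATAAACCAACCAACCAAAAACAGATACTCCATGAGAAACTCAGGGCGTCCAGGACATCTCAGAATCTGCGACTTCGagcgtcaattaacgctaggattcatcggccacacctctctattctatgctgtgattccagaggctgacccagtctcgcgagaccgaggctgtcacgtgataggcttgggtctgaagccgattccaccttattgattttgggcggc
Gm30494: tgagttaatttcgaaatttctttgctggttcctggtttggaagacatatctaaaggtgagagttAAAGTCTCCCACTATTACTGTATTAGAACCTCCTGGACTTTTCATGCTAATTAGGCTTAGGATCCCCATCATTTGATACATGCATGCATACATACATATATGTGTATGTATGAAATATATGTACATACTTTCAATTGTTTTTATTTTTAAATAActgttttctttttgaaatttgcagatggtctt
Slc38a7: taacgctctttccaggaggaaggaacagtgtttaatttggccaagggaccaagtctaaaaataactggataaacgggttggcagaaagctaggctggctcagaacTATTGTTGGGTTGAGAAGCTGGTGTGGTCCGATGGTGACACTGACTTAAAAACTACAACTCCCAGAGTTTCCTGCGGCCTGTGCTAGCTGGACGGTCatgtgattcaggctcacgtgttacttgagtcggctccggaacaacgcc

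Most circles that carried a whole microRNA hairpin were neonatal. Of 1005 hairpins in RefSeq, circles up to 10 kb held one or more in 6, 6 and 10 circles of the 3d libraries and in 0, 2 and 0 circles of the 8w libraries. The neonatal circles were long enough for a hairpin with its flanks. Mir133b, a microRNA of striated muscle, lay in a circle of 377 bp at chr1:20682681-20683057 with 20 split reads in 3d replicate 2. Mir30a, a microRNA abundant in heart muscle, lay in one of 389 bp at chr1:23272227-23272615 with 8 split reads in 3d replicate 3, and Mir126a, an endothelial microRNA, in one of 1266 bp at chr2:26590286-26591551 with 16 in 3d replicate 2. Mir25, Mir93 and Mir106b, neighbours in 1 cluster, shared a circle of 1005 bp at chr5:138164960-138165964 with 1, 6 and 0 split reads in the 3d replicates. Both adult circles held Mir149, at chr1:92850323-92850506 and chr1:92850325-92850500, with 6 split reads each in 8w replicate 2, the second inside the first. No test was made, since the adult libraries held fewer and shorter circles. The main mature sequences are printed with the seed, bases 2 to 8, in capitals, and miR-93-5p and miR-106b-5p share theirs.
miR-133b-3p: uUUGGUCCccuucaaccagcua
miR-30a-5p: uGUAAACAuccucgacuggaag
miR-126a-3p: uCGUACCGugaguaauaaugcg
miR-25-3p: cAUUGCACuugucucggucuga
miR-93-5p: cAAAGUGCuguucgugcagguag
miR-106b-5p: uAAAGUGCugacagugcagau
miR-149-5p: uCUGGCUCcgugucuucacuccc

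The libraries differed in depth, and 2 of them stood apart. Split reads numbered 310110, 341384 and 665303 at 3d and 11377, 194280 and 67182 at 8w, and the total reads behind them are not known here. In 8w replicate 1, 60.5% of circles rested on a single split read, and in 3d replicate 1 37.9%, against 6.96% to 14.8% in the other 4 libraries. Of the single-read circles of 8w replicate 1, 96.8% were also read in another of the 9 libraries, and 79.9% had 5 or more split reads there. In 8w replicates 2 and 3 the former share was 81.3% and 92.5%, and at 3d it was 93.3%, 62.3% and 51.5%. The single-read circles of the adult libraries had median lengths of 367, 364.5 and 370 bp, near the 369, 369 and 378 bp of the neonatal ones, whereas adult circles with 2 or more reads had medians of 139, 132 and 100 bp. Lengths, length classes and the split reads in them are therefore also given for circles with 2 or more split reads. A share of a single library carries a Wilson 95% interval of at most 0.6003 percentage points either way at 3d and 1.56 at 8w, which covers only the error of counting, as reads copied from 1 circle do not count separate molecules.

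Adult libraries yielded fewer circles and much less circular sequence. The libraries held 32194, 26648 and 42963 circles at 3d and 3931, 14721 and 6645 at 8w, so each adult library lay below each neonatal one. The mean number at 8w was 0.248 of that at 3d (33935 ± 8296 against 8432 ± 5613, SD, n = 3), and the difference of the mean log2 numbers was -2.19 (exact two-sided permutation p = 0.1, the smallest that 3 against 3 libraries allow). The summed length of circles up to 10 kb was 15.8, 11.5 and 25.9 Mb at 3d and 1.40, 2.48 and 1.22 Mb at 8w, without overlap, and the ratio of means was 0.0961 (log2 difference -3.37, exact p = 0.1). The number of split reads per circle did not follow this pattern, with means of 9.63, 12.8 and 15.5 at 3d and 2.89, 13.2 and 10.1 at 8w (log2 difference -0.77, exact p = 0.5), and the groups overlapped. Whether an adult heart holds fewer circles per cell or fewer were captured cannot be told apart, since neither cell numbers nor DNA input are given. At an equal depth of 11377 split reads the log2 difference in number shrank to -0.59, with 6552, 7707 and 8498 circles at 3d against 3931, 7011 and 4550 at 8w, so that 8w replicate 2 exceeded 3d replicate 1.

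The adult shortfall lay in long circles. Among circles with 2 or more split reads, those of 250 to 450 bp numbered 10316, 11174 and 17743 at 3d and 267, 776 and 279 at 8w, a ratio of means of 0.0337. The ratio went down with each longer class, to 0.0205 above 450 to 650 bp, 0.0118 above 650 to 1000 bp and 0.0101 over 1000 bp. With 1 or more split reads the fall was flatter, with ratios of 0.0653, 0.0545, 0.0431 and 0.0390 in the same 4 classes. In the longest class, at 2 or more reads, the libraries held 1580, 1360 and 5245 circles at 3d and 43, 13 and 27 at 8w. The groups did not overlap in any of these 4 classes at either minimum (exact two-sided permutation p = 0.1 each, n = 3). Short circles were more numerous at 8w in the mean, within the spread between libraries. Those of 80 to under 250 bp numbered 2204, 6291 and 2773 at 3d and 978, 11863 and 4849 at 8w (ratio 1.57, exact p = 0.7). Those under 80 bp numbered 114, 342 and 100 at 3d and 125, 921 and 399 at 8w (ratio 2.60, exact p = 0.2), and in both short classes the groups overlapped.

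As shares of a library, all 6 length classes separated the stages. Circles of 80 to under 250 bp made up 16.6%, 26.0% and 7.73% of the 3d libraries and 41.8%, 82.8% and 77.2% of the 8w libraries. Circles under 80 bp made up 0.910%, 1.41% and 0.284% against 4.22%, 6.34% and 6.19%. Every adult library was above every neonatal one in both, and 8w replicate 1 lay nearest to the neonatal range. Circles of 250 to 450 bp made up 48.5%, 46.1% and 45.3% at 3d, a narrow range, and 31.8%, 7.96% and 10.02% at 8w. The 3 longer classes also lay lower in each 8w library, and the share over 1000 bp was 7.36%, 5.63% and 12.8% against 4.73%, 0.550% and 1.49%. The difference in means was 50.5 percentage points for 80 to under 250 bp and -30.0 for 250 to 450 bp (exact two-sided permutation p = 0.1 in each of 6 classes, Benjamini-Hochberg adjusted 0.1, n = 3). Without 8w replicate 1 these differences were 63.2 and -37.6 points, and with 2 or more split reads they were 63.7 and -38.3 points. At that minimum all 6 classes still separated the stages, and the share over 1000 bp was 7.90%, 5.63% and 13.3% against 2.77%, 0.0949% and 0.477%.

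**Figure D1:**
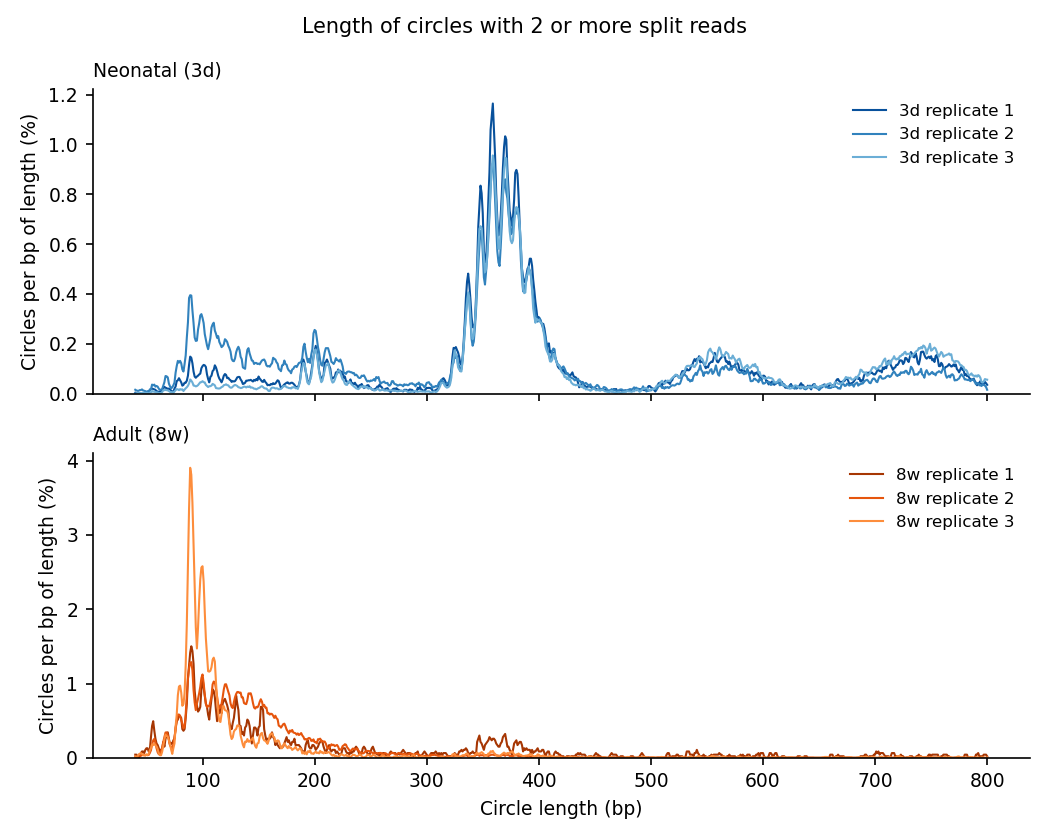
Share of a library's circles per bp of circle length (percent, y axis, separate scales) against circle length (bp), for circles with 2 or more split reads, with 1 line per library and the 3d libraries above the 8w libraries. The 3d libraries peak at 359 bp, and the 8w libraries at 89 or 90 bp.

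The whole distribution moved, not only its middle. The 25th percentile of length was 345, 220 and 361 bp in the 3d libraries and 121, 103 and 91 bp in the 8w libraries, and the 75th percentile was 596, 525 and 743 bp against 402, 175 and 160 bp. The 95th percentile was 1137, 1061 and 1441 bp in the 3d libraries and 967, 372 and 570 bp in the 8w libraries, and none of these percentiles overlapped. With 2 or more split reads the 95th percentile was 1150, 1062 and 1456 bp against 781, 278 and 356 bp, and again none of the 4 percentiles overlapped. At the short end the 5th percentile was 108, 95 and 200 bp against 82, 77 and 78 bp, so adult libraries differed little among themselves there. Very long circles were rare at both stages. Circles over 10 kb numbered 24, 17 and 28 at 3d and 3, 0 and 2 at 8w. A whole protein-coding gene lay in 23, 16 and 33 circles at 3d and in 2, 1 and 1 at 8w, but most of these circles were over 100 kb, and up to that length there were 2, 2 and 6 against 0, 1 and 0.

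Both stages held a ladder of preferred lengths with a similar step. Among circles of 75 to 250 bp with 2 or more split reads, the length distribution repeated best at a shift of 11 bp in all 6 libraries, with autocorrelations of 0.673, 0.452 and 0.663 at 3d and 0.267, 0.627 and 0.311 at 8w. The median gap between neighbouring rungs, the peaks of the ladder, was 10, 10.5 and 11 bp at 3d and 10 bp in each 8w library. Both measures of the step are close to a turn of the DNA helix. In the mean of the adult libraries the ladder started with its highest rung at 89 bp, which held 2.20% of circles per bp, and went down over rungs at 100, 110, 120 and 130 bp to 0.526% at 141 bp. The rung at 152 bp was higher again, and the later ones went down to 0.189% per bp at 205 bp. In the neonatal mean the rung at 89 bp held 0.199% per bp, the rung at 173 bp 0.066%, and the ladder rose again to 0.206% at 201 bp. The most frequent length under 250 bp was 90, 90 and 89 bp in the adult libraries and 201, 89 and 201 bp in the neonatal ones, where 3d replicate 2 stood with the adults. Over all lengths it was 359 bp in every neonatal library and 90, 90 and 89 bp in the adult ones. From 300 bp upward it was 370, 358 and 359 bp at 8w, so the few long adult circles peaked near the neonatal length. These are descriptions of the pooled circles of each library, with no test.

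Split reads shifted further than circle numbers. Circles under 250 bp held 6.06%, 22.5% and 4.69% of split reads at 3d and 65.4%, 94.5% and 95.7% at 8w, and the median length weighted by split reads was 426, 376 and 557 bp against 152, 127 and 98 bp. The share of split reads over the share of circles says whether a class was read more often than its number of circles would give. For circles over 1000 bp this ratio was 1.68, 1.41 and 1.34 at 3d, above 1 in each library, and 0.661, 0.207 and 0.168 at 8w, below 1 in each (difference of mean log2 ratios -2.37, exact two-sided permutation p = 0.1, n = 3). For circles under 80 bp it was 0.278, 0.799 and 0.551 at 3d and 2.00, 1.33 and 1.26 at 8w (log2 difference 1.59, exact p = 0.1). All 6 classes separated the stages without overlap (adjusted p = 0.1), and the sign turned between 80 to under 250 bp and 250 to 450 bp. The median adult circle over 1000 bp had 1 split read in each 8w library, against 4, 10 and 12 at 3d. With 2 or more split reads the ratios over 1000 bp were 1.59, 1.42 and 1.30 against 0.855, 0.834 and 0.304, a smaller log2 difference of -1.25 (exact p = 0.1), and the medians overlapped, at 10, 11 and 13 against 2, 14 and 2. All 6 classes separated the stages at that minimum too. Thinned to 11377 split reads the ratios moved toward 1, with 1.22, 1.18 and 1.03 against 0.661, 0.924 and 0.503 over 1000 bp, and the class of 250 to 450 bp overlapped. The share of amplification in these ratios was not tested.

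**Figure D2:**
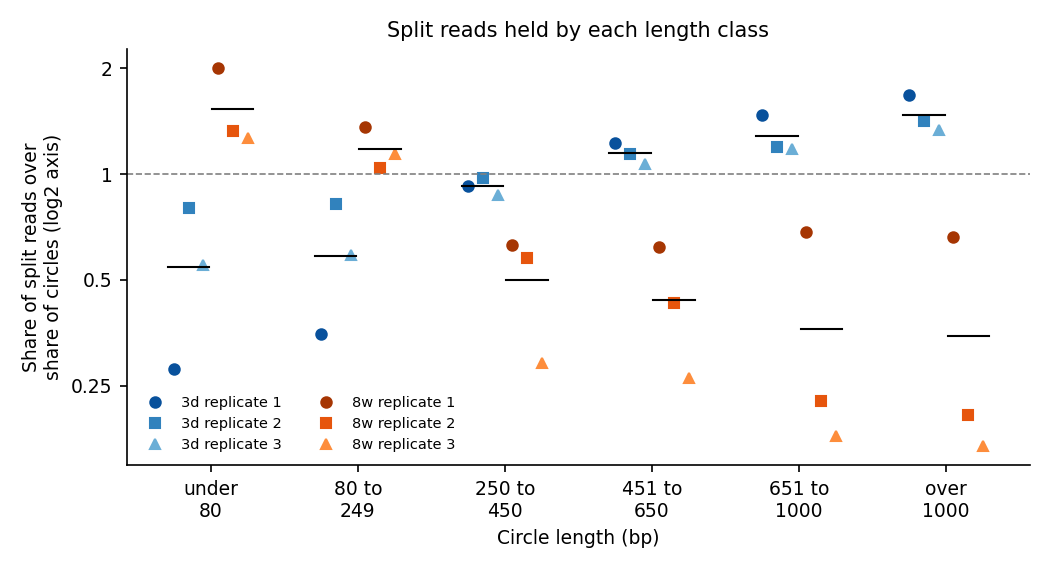
Share of split reads over share of circles (y axis, log2 scale) for 6 classes of circle length (bp), with 1 point per library and a bar at the arithmetic mean of the ratios of each stage. The 3d libraries go up from left to right and the 8w libraries go down, crossing between the classes of 80 to under 250 bp and 250 to 450 bp.

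Few circles were found at both stages, and which ones depended on the reads required. With 1 or more split reads, 6116 circles occurred at both, which is 24.9% of the adult and 6.70% of the neonatal circles. By length, 80.2% of the adult circles over 1000 bp (284 of 354) were also in a neonatal library, but only 16.9% of those of 80 to under 250 bp. With 5 or more split reads at each stage, 302 circles remained, 1.76% of the adult and 0.496% of the neonatal circles, with a median length of 137.5 bp. The share of adult circles over 1000 bp was then 30.4% (7 of 23) and that of 80 to under 250 bp 1.34%. Seen from the neonatal side the order was the opposite, with 22.1% of circles of 80 to under 250 bp and 3.38% of those over 1000 bp shared at 1 or more reads. The circle most read at both stages was chr4:51835650-51835822 (173 bp, in no gene), with 160 split reads in 3d replicate 3 and 44 in 8w replicate 2. A circle of 781 bp in Usp6nl at chr2:6331545-6332325 had 1 and 25 split reads in 3d replicates 2 and 3 and 65 in 8w replicate 2.

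**Figure D3:**
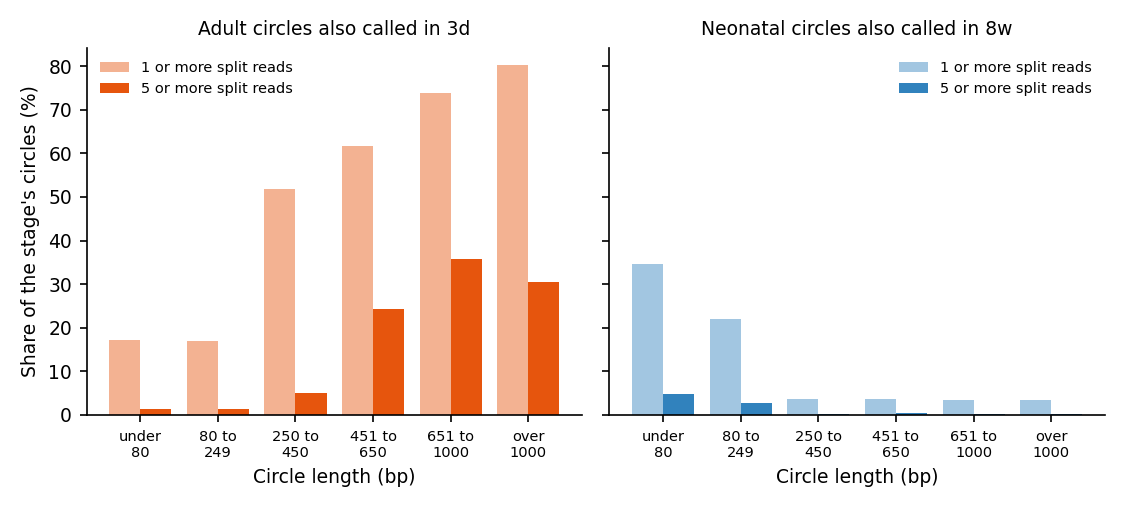
Share of a stage's distinct circles that were also called at the other stage (percent) by circle length (bp), at 1 or more and at 5 or more split reads, with adult circles on the left and neonatal circles on the right. The adult share goes up with length to 80.2% at 1 or more reads, and the neonatal share goes down to 3.38%.

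Neonatal libraries shared more circles with each other than with adult libraries in the mean, whereas the mean among adult libraries lay below that between the stages at 1 or more split reads. The Jaccard index, the share of circles of a pair of libraries that both hold, was 1.92% to 8.18% within 3d, 1.09% to 2.23% within 8w and 0.963% to 4.18% between the stages. The means were 5.61% within 3d, 1.71% within 8w and 1.93% between. The mean within stages exceeded the mean between them by 1.73 percentage points (exact one-sided permutation p = 0.1, the smallest that the 10 ways to part 6 libraries allow), by 0.814 points at 2 or more split reads and by 0.184 points at 5 or more. The first margin was 0.459, 1.13 and 0.663 points without 3d replicate 1, 2 or 3, and 2.55 to 2.93 points without an 8w library. Thinned to 11377 split reads it was 0.0530 points. Of the 5 circles in the most libraries, 4 were in all 6 and 1 in 5. The circle chr9:111081687-111083018 (1332 bp, in no gene) had 2, 12 and 33 split reads at 3d and 4, 1 and 6 at 8w. In single circles found in at least 3 of the 9 libraries, 0 of 2893 differed between the stages (0% called, edgeR's quasi-likelihood test, Benjamini-Hochberg adjusted), 55 were higher (1.9%) and 0 lower at 8w at an unadjusted p under 0.05, and DESeq2 called 3, with 1 higher and 10 lower at that unadjusted p.

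Adult circles came less often from protein-coding genes. A gene was touched by 42.9%, 44.0% and 43.8% of circles at 3d and by 40.1%, 39.3% and 38.7% at 8w, without overlap, a difference of -4.21 percentage points (exact two-sided permutation p = 0.1, n = 3). Longer circles touch genes more easily, so the classes of length were compared. In circles of 80 to under 250 bp the share was 43.1%, 42.3% and 42.1% against 39.2%, 39.2% and 38.2%, and in those of 250 to 450 bp it was 42.6%, 44.5% and 43.3% against 40.6%, 40.4% and 39.9%. These 2 of 6 classes did not overlap (exact p = 0.1, adjusted over the classes 0.3), and in the other 4 the stages overlapped. The mean over classes weighted equally differed by -2.37 points (exact p = 0.2).

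The gene share was lower at 8w in all 4 classes of windows that hold a gene, and adult circles lay more often in windows without any. The genome was cut into windows of 1 Mb by their number of RefSeq protein-coding genes. In windows with 4 to 8 genes the share of circles in genes was 46.4%, 47.9% and 48.2% at 3d and 43.1%, 43.7% and 42.8% at 8w, and in windows with over 15 genes 58.5%, 57.5% and 58.7% against 55.0%, 52.9% and 52.8%. The stages did not overlap in 4 of 5 density classes (exact two-sided permutation p = 0.1, adjusted 0.125, n = 3), and they overlapped in windows with no gene. Such gene-free windows held 9.79%, 8.51% and 9.59% of circles at 3d and 9.84%, 11.4% and 11.02% at 8w, where 8w replicate 1 lay just above 3d replicate 1. Circles that overlapped a RefSeq promoter window, from 250 bases before to 50 after a gene start, made up 0.758%, 0.675% and 0.810% at 3d and 0.483%, 0.408% and 0.271% at 8w. These shares did not overlap (exact p = 0.1), but they did after thinning. They were not compared at equal circle length, and longer circles overlap a promoter window more easily.

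**Figure D4:**
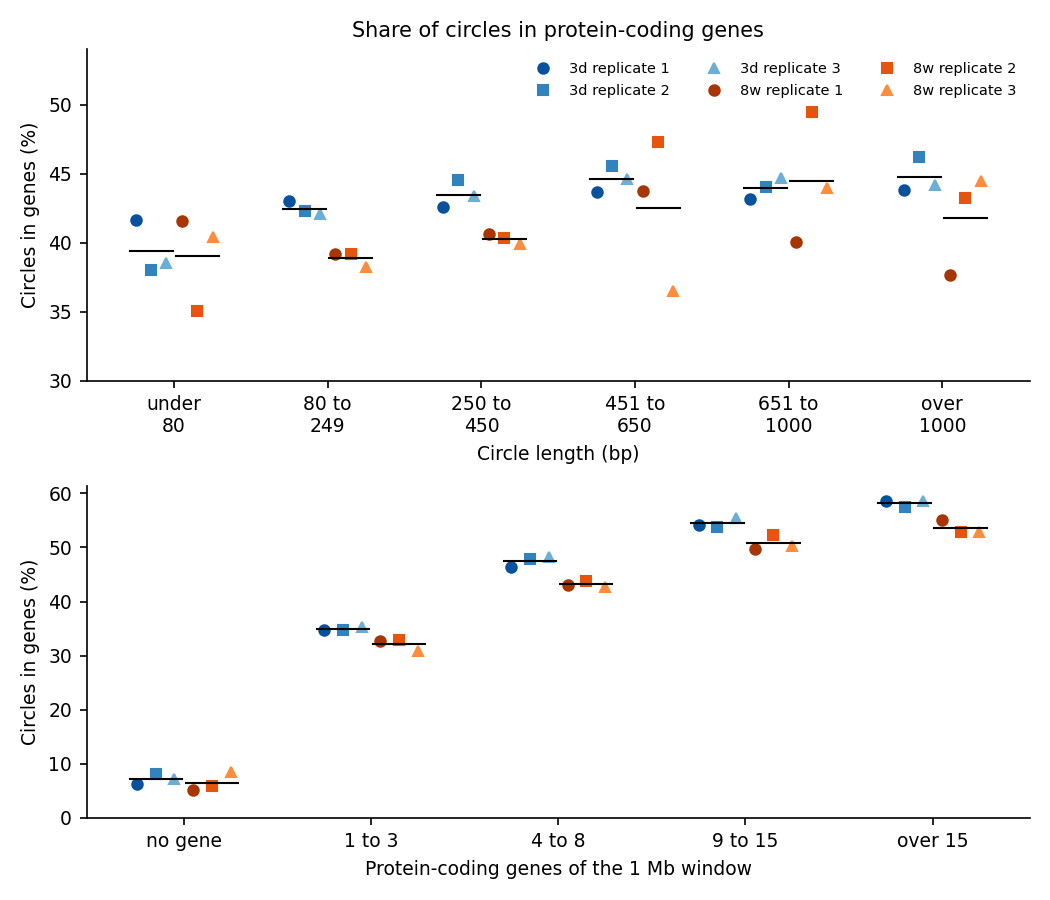
Share of circles that touch a protein-coding gene (percent), by circle length (bp, upper plot, axis from 30%) and by the number of protein-coding genes in the 1 Mb window of the circle (lower plot), with 1 point per library and a bar at the stage mean. The 8w points lie below the 3d points at 80 to under 250 bp, at 250 to 450 bp and in every window class that holds a gene.

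By chromosome, the stages separated on 6 of 21, but on 1, chromosome 7, when libraries were thinned to equal split reads. The adult share was above the neonatal one on chromosomes 5, 7 and X (14.3% of chromosomes) and below it on 4, 11 and 14 (14.3%), at exact two-sided permutation p = 0.1 each and an adjusted p of 0.35. Chromosome X held 3.59%, 3.99% and 3.08% of circles at 3d and 4.78%, 4.37% and 4.57% at 8w. Chromosome 11 held 5.20%, 5.30% and 4.98% against 4.96%, 4.78% and 4.71%. In circles of 80 to under 250 bp alone, X held 3.07%, 4.36% and 2.98% against 5.05%, 4.45% and 4.66%, a separation that was lost on thinning. Chromosome Y held 0.00932%, 0.0113% and 0.0466% at 3d and 0%, 0.0611% and 0% at 8w. The part of sex, which the labels do not give, was not tested.

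Among single genes, Thsd7b stood first on the adult side. Circles were counted per gene and scaled to 10000 circles of the library, so a fold here is one of a gene's share of circles, not of its number. The 2174 genes whose circles summed to 10 or more over all 9 libraries were tested, and 0 were called (0% called, edgeR's quasi-likelihood test, Benjamini-Hochberg adjusted p under 0.05). At an unadjusted p under 0.05, 31 were higher (1.43%) and 69 lower (3.17%) at 8w. DESeq2 also called 0, with 1 higher and 80 lower at that unadjusted p. This balance turned with no filter (122 higher and 73 lower of 14085 genes), with circles of 250 bp or more (20 and 4) and without 8w replicate 2 (33 and 25). Libraries did not overlap in 57 genes that were higher (2.62%) and 362 that were lower (16.7%).

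Thsd7b, a transmembrane protein with thrombospondin repeats, lies at chr1:129273303-130219278 (plus strand). It had 10, 5 and 12 circles at 3d and 5, 13 and 5 at 8w, which is 3.11, 1.88 and 2.79 per 10000 circles against 12.7, 8.83 and 7.52. Each adult library was above each neonatal one, with means of 2.59 ± 0.639 and 9.69 ± 2.70 (SD, n = 3), a log2 change of 1.75 (SE 0.43, edgeR unadjusted p = 4.34e-05, adjusted 0.0943). Its circles had a median length of 371 bp at 3d and 131 bp at 8w. The adjusted p was 0.0276 where only the 779 genes with at least 20 circles were tested and 0.0943 to 0.934 in the main test and with the other tools, scales, filters and left-out libraries that kept circles of every length. With circles of 250 bp or more alone it had 10, 2 and 9 circles against 0, 1 and 0, and the log2 change turned to -0.24 (adjusted p = 0.920).

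The other genes with the smallest p on the adult side had few circles. Dnah7a, a dynein heavy chain of cilia, had 3, 2 and 5 circles at 3d and 1, 6 and 3 at 8w (log2 1.94, SE 0.69). Il1rapl2, a relative of the interleukin 1 receptor accessory protein on chromosome X, had 9, 3 and 8 against 2, 10 and 2 (log2 1.47, SE 0.53), and Arhgef10l, a guanine nucleotide exchange factor, 2, 1 and 2 against 1, 3 and 3 (log2 2.36, SE 0.88). In these genes, and in Skint5 and Mageb18, every adult share was above every neonatal one, whereas Wdpcp, Phactr2 and Ncoa7 overlapped, all at an adjusted edgeR p of 0.692. Lin28b, an RNA-binding protein that blocks let-7 maturation, had 0, 0 and 2 circles at 3d and 0, 3 and 2 at 8w, and 1 of the neonatal ones also held neighbouring genes. Of the circles of Dnah7a, 2, 1 and 4 at 3d and none at 8w were of 250 bp or more.

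On the neonatal side, 8 of the 10 genes with the smallest p had no adult circle. Bach2, a transcriptional repressor of lymphocytes, had 4, 7 and 13 circles at 3d and 0 in each 8w library, at least 1.99-fold lower against a floor of 3 circles over the 3 adult libraries. These bounds, here and below, take the neonatal share as exact and make no allowance for the choice of genes and windows by p. Sncaip, which encodes synphilin-1, had 8, 5 and 9 against 0 (at least 1.82-fold lower), and Tmem108 had 5, 7 and 8 against 0 (at least 1.66-fold lower). The collagen gene Col19a1 and the neurotrophin receptor gene Ntrk3 had 18 neonatal circles each (at least 1.49-fold lower). Zfp521, Pde11a (a cyclic nucleotide phosphodiesterase) and Plxna2 (a semaphorin receptor) had 17 each (at least 1.41-fold lower). Tenm4, a teneurin, had 11, 8 and 22 against 0, 1 and 1 (log2 -2.26, SE 0.79), and Dnm3, a dynamin, had 8, 10 and 11 against 0, 1 and 0 (log2 -2.67, SE 1.02). The groups did not overlap in any of the 10, and the adjusted edgeR p was 0.692 in each. With 1.19 circles per 10000 as the adult floor, 281 of the 2174 genes (12.9%) had no adult circle.

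**Figure D5:**
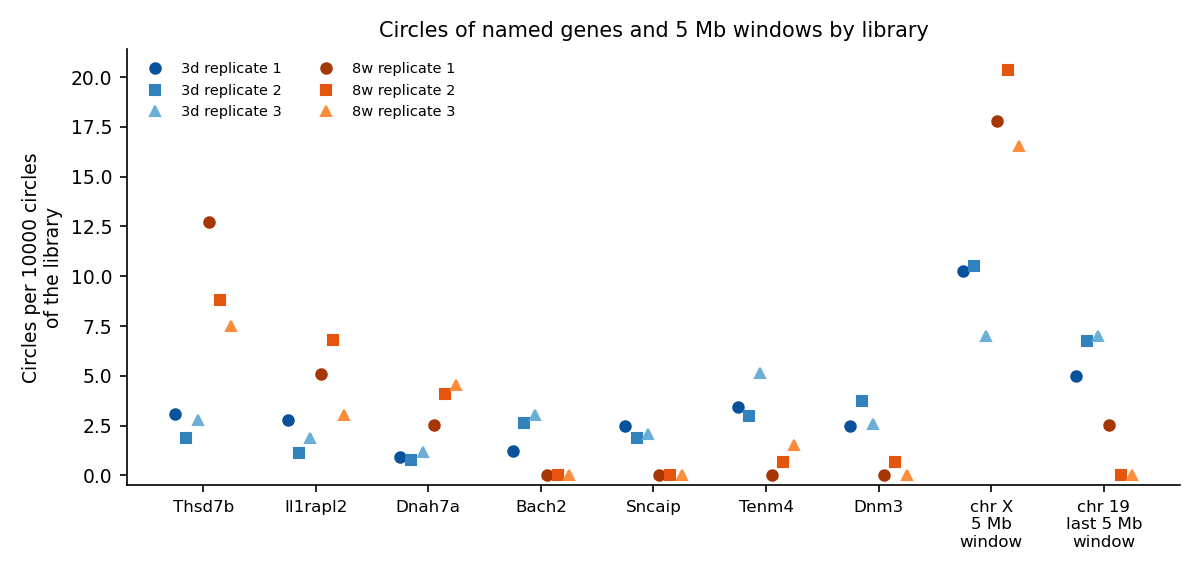
Circles per 10000 circles of the library (y axis) for 7 genes of the rule and the 2 called windows of 5 Mb, with 1 point per library and no error bars. Thsd7b and the chromosome X window are higher in each 8w library, and Bach2 and Sncaip have no 8w circle.

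None of the 10 genes with the most circles was called. Fgfr2, a fibroblast growth factor receptor, had 48, 34 and 74 circles at 3d and 5, 17 and 5 at 8w (log2 -0.52, SE 0.29, edgeR adjusted p = 0.692), and its shares did not overlap, but the table gives it a span of 2961 kb and RefSeq one of 104 kb. Arfip1, at 1391 kb against 86.7 kb, is affected likewise, and Gm20388 has 4435 kb in the table and was not matched in RefSeq, so the circles of these 3 are those of a wider region. Dmd, which encodes dystrophin, the protein that ties the muscle cytoskeleton to the membrane, had 22, 15 and 31 circles against 2, 10 and 5, or 6.56 ± 0.828 and 6.47 ± 1.25 per 10000 (SD, n = 3, log2 0.01, SE 0.39, adjusted p = 0.996). Ptprd (log2 -0.26), Csmd1 (-0.69), Cntnap2 (-0.64), Macrod2 (-0.26), Dlg2 (-0.33), Pcdh15 (0.23) and Gm20388 (-0.19) were not called, with adjusted edgeR p from 0.697 to 0.93. 8w replicate 1 had no circle of Ptprd or Csmd1, although the other adult libraries had 9.51 and 7.52 per 10000 of Ptprd.

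The gene lists of heart maturation were sparse in circles, and 0 of their tested members was called in any of them. Over all 2174 tested genes 964 were higher and 1210 lower at 8w, with a median log2 change of -0.26, or 0.04 when genes with no adult circle were set at their bound. As background for the list rates, all 14085 genes with a circle held 4729 ± 115 circles per 10000 at 3d and 4277 ± 484 at 8w (SD, n = 3). The ratio of these means was 0.904, and the stages overlapped. Among cardiac transcription factors 4 of 13 tested genes were higher and 9 lower (median -0.70, or 0.01 at the bound), and the list held 26.0 ± 1.37 circles per 10000 at 3d and 17.4 ± 1.95 at 8w (SD, n = 3, no overlap). Meis2, a homeobox factor, had 7, 3 and 6 circles against 0 in each adult library (at least 1.33-fold lower, edgeR unadjusted p = 0.0125), and Gata4, a zinc finger factor of heart development, had 3, 7 and 1 against 0 (unadjusted p = 0.0423), both at an adjusted p of 0.692. For Gata4 the same floor gave a bound of 0.911-fold, under 1, so its lack of adult circles does not bound a fall. Cell cycle genes held 10.7 ± 0.820 against 6.54 ± 1.75 per 10000, without overlap, with 0 of 3 tested genes higher. They were the cyclin-dependent kinase genes Cdk6 (5, 2 and 3 circles against 0, 1 and 0, log2 -1.19) and Cdk14 (log2 -0.56), and Rb1 (log2 -0.71), the retinoblastoma gene, a brake on entry into division. Cdk14 turned to 0.21 without 3d replicate 3, and Cdk6 to 0.92 with circles of 250 bp or more.

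Calcium handling genes held 31.7 ± 0.488 circles per 10000 at 3d and 26.2 ± 2.97 at 8w (SD, n = 3, no overlap), with 9 of 18 tested genes higher and 9 lower (median -0.24, or 0.23 at the bound). Slc8a1, the sodium-calcium exchanger of heart muscle, had 4, 7 and 5 circles at 3d and 0 at 8w (at least 1.33-fold lower, edgeR unadjusted p = 0.0132, adjusted 0.692), and the calcium release channel gene Itpr3 also had no adult circle. For Itpr3 the bound was 0.745-fold, which shows no fall. Sarcomere genes held 11.5 ± 2.61 against 10.002 ± 3.13, with 2 of 6 higher and 4 lower (median -0.42, or -0.06 at the bound). Neb, the gene of nebulin, had 8, 1 and 11 circles against 0, 1 and 0, and Pdlim5, a protein of the Z-disc, 3, 2 and 5 against 0. The bound for Pdlim5 was 0.828-fold, which shows no fall either. The stages overlapped for the sarcomere list.

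The metabolic lists had few testable members. Fatty acid oxidation genes and their regulators held 11.7 ± 1.22 circles per 10000 at 3d and 9.25 ± 2.88 at 8w (SD, n = 3), with 4 of 6 tested genes higher and 2 lower (median 0.32, or 0.68 at the bound). The nuclear receptor genes Esrrg and Rxra had log2 changes of -1.36 and 1.81 (edgeR adjusted p = 0.692 and 0.697), the latter on 3, 0 and 0 circles against 1, 2 and 0. Glycolysis genes held 3.90 ± 1.501 against 0.679 ± 1.18, and 1 gene, Hk1 (hexokinase 1), could be tested (log2 -0.27). The stages just missed overlap for this list, at 2.17 in 3d replicate 1 against 2.04 in 8w replicate 2. All its adult circles were in 8w replicate 2. Respiratory chain genes held 3.93 ± 1.25 against 5.56 ± 1.77, with 2 of 2 tested genes higher, Ndufaf2, an assembly factor of complex I (log2 1.85), and Cox10, which acts in making heme A (log2 0.94).

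The lists of other cell types and of growth signals showed no common direction. Endothelial genes held 9.53 ± 1.27 circles per 10000 at 3d and 11.03 ± 0.942 at 8w (SD, n = 3), with 2 of 6 tested genes higher and 4 lower (median -0.59, or 0.42 at the bound). Erg, an endothelial transcription factor, had 2, 5 and 4 circles against 0, 4 and 3 (log2 1.31), and Tek, the angiopoietin receptor gene, had no adult circle (bound 0.414-fold, which shows no fall). Blood and immune genes held 12.8 ± 2.41 against 16.6 ± 7.68, with 7 of 13 higher and 6 lower (median 0.01, or 0.27 at the bound). Prkcq, a kinase of T cells, had no adult circle (bound 0.828-fold, which shows no fall). Fibroblast and matrix genes held 13.8 ± 0.806 against 9.87 ± 3.46 without overlap, with 3 of 7 higher and 4 lower (median -0.10), and the fibrillin genes Fbn1 and Fbn2 had log2 changes of -1.44 and -0.85, with adult circles (1 and 2) in 8w replicate 2 alone. Growth and hormone signalling genes held 50.01 ± 6.19 against 43.1 ± 8.94, with 9 of 18 higher and 9 lower (median -0.13, or 0.08 at the bound). These rates include Fgfr2, whose circles are those of a wider region, at a mean of 14.96 per 10000 at 3d and 10.6 at 8w. A list rate without Fgfr2 was not computed. The neuregulin gene Nrg2 had 1, 2 and 2 circles against 0, 4 and 1 (log2 1.88, or 0.87 without 8w replicate 2).

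Along the chromosomes, 2 regions passed at a coarse scale. In windows of 1 Mb, 0 of 2546 were called (0% called, edgeR's quasi-likelihood test, Benjamini-Hochberg adjusted), 78 were higher (3.06%) and 75 lower (2.95%) at an unadjusted p under 0.05, and DESeq2 called 0. In windows of 5 Mb, 2 of 535 were called (0.374%). From 60 Mb to the end of chromosome 19 there were 16, 18 and 30 circles at 3d and 1, 0 and 0 at 8w, or 6.24 ± 1.10 against 0.848 ± 1.47 per 10000 (SD, n = 3). The log2 change there was -3.79 (SE 0.87, edgeR adjusted p = 0.0069). Most of these circles lay in its first 1 Mb, with 11, 15 and 21 at 3d and 1, 0 and 0 at 8w. As a window of 1 Mb that part was not called (edgeR adjusted p = 0.250). The 12 protein-coding genes of the whole region include Prdx3, a peroxidase of mitochondria, and Grk5, a kinase of G protein-coupled receptors expressed in the heart. At chrX:110000001-115000000, with 17 genes, there were 33, 28 and 30 circles at 3d and 7, 30 and 11 at 8w, or 9.25 ± 1.96 against 18.2 ± 1.95 per 10000. The log2 change was 1.07 (SE 0.28, edgeR adjusted p = 0.0356). No library overlapped the other stage in either.

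Both calls depended on the setting. DESeq2 gave an adjusted p of 0.249 for both windows, and a replicate block in edgeR one of 0.194 for both, with 0 windows called in each. With TMM both stayed called, among 5 windows (edgeR adjusted p = 0.00776 and 0.0292). Without 8w replicate 2, the deepest adult library, the adjusted edgeR p was 0.378 on chromosome 19 and 0.399 on X. The chromosome 19 call held without each of the other 5 libraries. Its log2 change was -3.91 to -3.42 in 4 of these fits, and in the one without 8w replicate 1 no adult circle was left. The X call also failed without 3d replicate 1 (adjusted p = 0.0533), 3d replicate 3 (0.211) or 8w replicate 1 (0.0693).

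Among windows of 1 Mb with the smallest p, 2 of the 5 that were higher at 8w held no protein-coding gene and the other 3 held 1 each. The window of chromosome 4 from 79 Mb, with no gene, had 7, 5 and 8 circles at 3d and 4, 9 and 6 at 8w (log2 1.91, SE 0.51), and that of chromosome 17 from 76 Mb, also with none, had a log2 change of 1.36. The others were those of Nap1l3 on X (log2 2.46), Thsd7b (1.45) and Angpt1, the gene of the ligand of Tek (1.40). The 5 that were lower held 4 to 20 genes. Among all windows of 1 Mb, 11.02% held no gene and 27.23% held 1 to 3. None of the 10 named windows was called, and whether their gene numbers differ from those of all windows was not tested. The window of chromosome 12 from 21 Mb, with Adam17 and Itgb1bp1 among 7 genes, had 12, 6 and 14 circles at 3d and 0 at 8w (at least 2.65-fold lower). That of chromosome 7 from 143 Mb, with 20 genes including the potassium channel gene Kcnq1, had 21, 13 and 29 against 1, 2 and 1 (log2 -1.93, SE 0.62), and the others were on chromosome 19 from 60 Mb (-3.36), 15 from 25 Mb (-2.23) and 14 from 33 Mb (-2.43). Adjusted edgeR p-values of these 10 windows ran from 0.250 to 0.461.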

How the data were processed

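Circle-seq of mouse heart DNA was used. Per the labels' protocols, digested samples were treated with alkali and purified on columns, and circles were copied with phi29 polymerase, sonicated and made into libraries. Reads went through BWA 0.7.12 and cutadapt 1.9.1, with SAMtools 1.9, an edgeR entry of 0.6.9 and bedtools 2.27.1 (builds GRCm38 and mm10, per the submitters' processing notes). Circle-Map called the circles, per the file headers, which give neither version nor filters. Each deposited row gives the count of split reads of each circle in each library, which is the unit used here, beside the deposited circle length and the bp that a circle shares with a protein-coding gene. Its log2 values were not used. Copying with phi29 can favour some circle lengths, and split reads are fewer for circles covered thinly, so numbers of circles follow both.

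The table's 1 line per circle and gene was reduced to distinct circles. Presence in a library meant 1 or more split reads. Starts are printed counting from 1. Split reads per library ran from 11377 to 665303 in the 6 libraries. Single values per library were compared with exact two-sided permutation tests. Genes and windows of 1 Mb with at least 10 circles, and circles in at least 3 libraries, were tested in edgeR 4.0.16 (quasi-likelihood) in 1 fit of all 9 libraries, contrast 8w minus 3d, with library totals and no TMM as the scale, so that a fold is one of shares. Thresholds were 0.05, adjusted by Benjamini-Hochberg. DESeq2 1.42.0 was run under R 4.3.3, and Python 3.11.15 was used with SciPy 1.17.1, pandas 2.3.3, NumPy 2.4.6 and matplotlib 3.10.9. The scripts were tested on simulated data. Promoter windows, microRNAs and gene density came from RefSeq (GRCm38.p6, with 21887 protein-coding genes and 32851 promoter windows).

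Named genes are, per direction, the 10 of smallest unadjusted p, the 10 with the most circles in the 6 libraries, and the 2 of each list with the smallest p. For windows the 5 with the smallest p in each direction were named, for circles the 5 in the most of the 6 libraries, ties broken by split reads, and for promoters the 3 per stage with the most split reads. MicroRNA hairpins, the circles most read at both stages, Usp6nl and genes of the windows were picked after their values were seen. The members, gene lists and length classes were chosen with earlier results of these data known. The alternatives were 2 or more split reads, thinning to 11377 split reads, leaving out each library, a replicate block, weighting by reads, TMM, DESeq2, the 6 libraries alone, other filters, window sizes and circle lengths. A minimum of 5 split reads for shared circles and the settings of the windows of 5 Mb were added after seeing the data. Same-numbered libraries of the stages did not deviate together (correlations over windows of 0.041, -0.022 and -0.014), so the numbers were not taken as pairs.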

Additional observations from a re-analysis of the deposited data

How the results depend on the processing

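Of 210 alternatives for the main results, 204 kept the direction and the side of the threshold or stayed within 1.5 times the count. The exact tests allow no p below 0.1, so results tested by them could fail only by reversing direction. The margin of the Jaccard index thus counted as kept after thinning, at 0.0530 points (exact one-sided permutation p = 0.5). Split reads per circle reversed on thinning to 11377 split reads (log2 0.59), a direct effect of fewer circles at equal reads. The number of chromosomes without overlap was 1 after thinning and 6 to 11 leaving out single libraries. Testing genes with at least 20 circles called 1 gene, windows of 5 Mb gave 2 calls and DESeq2 called 3 single circles, against 0 each. At an unadjusted p under 0.05 the genes were 2 higher and 281 lower with TMM, against 31 and 69, and the median of all genes moved from -0.26 to -0.85. Leaving out single libraries gave 0 calls for genes, windows of 1 Mb and circles throughout.

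Leaving out single libraries, the log2 difference ran from -2.70 to -1.75 for the number of circles and from -1.20 to -0.10 for split reads per circle. The difference ran from -265 to -151 bp for the median length, from -4.58 to -3.90 points for the gene share and from 0.459 to 2.93 points for the margin of the Jaccard index.

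With the replicate block 0 genes, 0 windows and 0 circles were called, and the mean difference in log2 number stayed at -2.19, since pairing leaves means unchanged (exact sign-flip test, smallest p 0.25). At an unadjusted p under 0.05 the block gave 20 higher and 36 lower genes.

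Of 789 alternatives for single genes and windows, 760 kept direction and side. The log2 change of Dmd, near 0, reversed with TMM (-0.65), DESeq2 (-0.58), 2 or more split reads (-0.048) and circles of 250 bp or more (-0.12), and ran from -0.069 to 0.095 leaving out single libraries. Pcdh15 reversed with TMM (-0.43) and DESeq2 (-0.34). Leaving out single libraries also turned Cdk14 (-1.27 to 0.21, without 3d replicate 3), Arfip1 (-0.60 to 0.36) and Gm20388 (-0.29 to 0.0062, both without 8w replicate 2) and Hk1 (-3.20, with no adult circle left, to 0.11, without 8w replicate 3). With circles of 250 bp or more, Thsd7b (-0.24), Dnah7a (-3.42, fitted with no adult circle), Fgfr2 (0.11), Cdk6 (0.92), Dlg2 (0.017) and Arfip1 (0.10) reversed. The causes were not tested. Depth limits the adult genes, where no circle in 3 libraries allows up to 1.19 per 10000.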

Other observations

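With 2 or more split reads at each stage, 1611 circles occurred at both, and those named here were among the most read. Beside those in the report, a circle of 634 bp in Mgat5 (chr1:127239163-127239796), a glycosyltransferase gene, had 1 and 30 split reads in 3d replicates 1 and 3 and 44 in 8w replicate 3. One of 110 bp at chr5:51727517-51727626 had 43 in 3d replicate 3 and 60 in 8w replicate 3. One of 2483 bp at chr16:50565852-50568334 had 21 in 3d replicate 3 and 22 in 8w replicate 2, and one of 744 bp in Slc22a23 had 22 and 21 in the same libraries. All 4 had 5 or more split reads in 1 library of each stage only.

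Other microRNA hairpins in neonatal circles included Mir5108 (562 bp, 60 split reads in 3d replicate 1), Mir491 (390 bp, 31 in 3d replicate 3) and Mir9-2 (840 bp, 28 in 3d replicate 3).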
